A study of Rattus norvegicus with 40 samples.

Results

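T cells isolated from the blood of SS/CRL rats were compared after a high-salt diet (HS) and on a low-salt diet (LS). The SS/CRL rat is a colony of the Dahl salt-sensitive strain, an inbred model in which dietary salt raises blood pressure and damages the kidney. Both groups were sampled at 10 weeks of age, the HS rats after 3 weeks on that diet and the LS rats without it, and the labels give no genetic change or drug in either group. Each group held 4 RNA libraries, each made from the pooled cells of 3 rats, so that 8 of the 40 libraries of the study entered the comparison. The other libraries came from circulating T cells of a second colony, SS/MCW, on HS and LS at 10 weeks and on LS at 7 weeks, and from kidney T cells of the same 5 groups of rats. The effect of salt was measured over all 31677 gene models of the authors' table for these groups, of which 14949 carried a gene symbol.

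Expression is given as the authors' FPKM (sequenced fragments scaled for transcript length and library size), with 1 value per group. No value per pool was used, so no spread between pools stands beside the levels, and library depth is unknown. Fold changes are HS over LS. The error given with a log2 fold change is the standard error (SE) that the deposited Cuffdiff test statistic implies. The words rose and fell are kept for genes whose Cuffdiff q, as the authors' deposited table gives it, was below 0.05. The sodium content of the diets, the way the T cells were purified and any batch of library preparation are not given in the sources used here.

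T lymphocytes and the cytokines they release take part in salt-sensitive hypertension, and rats of this strain that lack T cells have milder disease. Raised sodium around a T cell is known to act through the osmotic transcription factor Nfat5 and the kinase Sgk1, and in cultured CD4 T cells it favours inflammatory helper cells. Blood T cells recirculate between lymphoid organs and tissues. A preparation of them can carry traces of platelets, red cells and granulocytes.

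The cells expressed T cell genes at high levels on both diets. Cd3e encodes the epsilon chain of CD3 (chromosome 8 from 47915615 to 47926788 on build rn5) and was at 739 FPKM on HS, against 674 FPKM on LS. The coreceptor gene Cd8a was at 421 FPKM on HS and 385 FPKM on LS, and the coreceptor gene Cd4 at 120 FPKM on HS and 122 FPKM on LS. Ptprc, which encodes the leukocyte phosphatase CD45, was at 628 FPKM on HS and 684 FPKM on LS. None of these 4 genes passed the test. Of 19 T cell identity genes 14 were higher on HS at a median log2 fold change of 0.10, and none was called by Cuffdiff. An unadjusted p under 0.05 was given to 3 of them that were higher and 1 that was lower, beside 9.18% of all gene models tested.

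Few gene models were called between the diets in the circulating cells. Of 17169 gene models tested, 115 were called, which is 0.67% of them. The calls held 37 gene models that rose on HS (0.216%) and 78 that fell (0.454%). An unadjusted Cuffdiff p under 0.05 was given to 1576 gene models, or 9.18%. A symbol was present on 58 of the called gene models, of which 25 rose and 33 fell. The 57 called gene models without a symbol held 12 that rose and 45 that fell. Most called changes were moderate. Over the 98 called gene models above 0 FPKM in both groups the median size of the log2 fold change was 0.84 and the smallest was 0.46. At least a 2-fold change was seen in 32 of them, 10 upward and 22 downward. Another 17 called gene models were listed at 0 in one group, 6 of them on LS and 11 on HS, and none of these exceeded 2.95 FPKM in the other group. The median log2 fold change of the 8117 gene models with at least 5 FPKM in both groups was 0.05.

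The call depends on how Cuffdiff forms its p-value. The lowest q was 0.0106, shared by 81 gene models at the smallest p that Cuffdiff gave, 5e-05, so no gene model passed a q of 0.01. When a normal p was taken from the deposited test statistic in place of the deposited p, 9 gene models passed, and 3 of these were among the 115. Stub1 was the 1 gene with a symbol that passed under both.

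**Figure D1:**
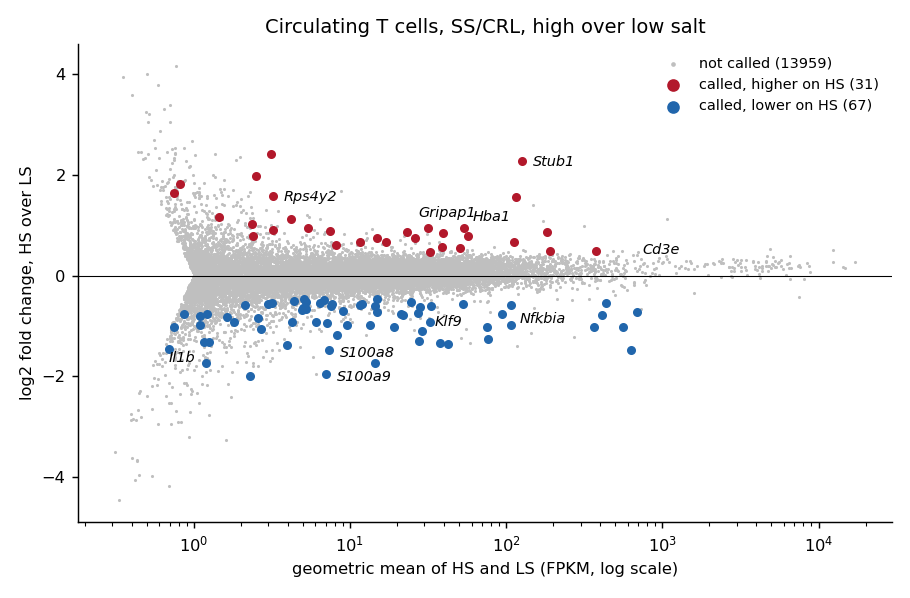
Log2 fold change of HS over LS in circulating T cells of SS/CRL rats against the geometric mean of the HS and LS levels in FPKM (log scale), for gene models tested whose higher group reached 1 FPKM and that were above 0 in both. Red points are the 31 called gene models that rose and blue points the 67 that fell; Stub1 stands far above other genes of its level, and Cd3e lies near 0.

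Genes that mark cells other than T cells were among the called genes, and they moved in both directions. Of 8 erythroid genes tested 3 rose, of 12 platelet genes 2 rose, and of 4 neutrophil genes 2 fell, beside 0.67% called over all gene models tested. The other tested members of these lists did not pass. Hba1 and Hba2 encode the alpha chain of hemoglobin, the oxygen carrier of red cells. Hba1 (chromosome 10 from 15497885 to 15498744) was at 74.8 FPKM on HS, against 38.7 FPKM on LS, a log2 fold change of 0.95 (SE 0.32; Cuffdiff q = 0.0106 in the authors' deposited table). Hba2 was at 33.9 FPKM on HS and 20.2 FPKM on LS, and the beta chain model that carries the symbols Hbb and Hbb-b1 was at 31.3 FPKM on HS and 17.1 FPKM on LS. All 3 hemoglobin models were thus 1.68 to 1.93 times as high on HS. Alas2, the red cell enzyme that starts heme synthesis, was at 0.729 FPKM on HS and 0.345 FPKM on LS and was not called. The summed level of the 14 matched erythroid genes was 198 FPKM on HS and 128 FPKM on LS, and none of them was at 0 in either group.

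Pf4, a chemokine stored in platelet granules (chromosome 14 from 18758054 to 18759000), was at 44.1 FPKM on HS, against 22.8 FPKM on LS, a log2 fold change of 0.96 (SE 0.41; Cuffdiff q = 0.0106). Gp1bb, a subunit of the platelet receptor for von Willebrand factor, was at 3.36 FPKM on HS and 1.65 FPKM on LS and also rose. Treml1, a receptor of platelet granules, was at 1.74 FPKM on HS and 0.91 FPKM on LS, and Clec1b, the platelet receptor for podoplanin, at 3.43 FPKM on HS and 2.24 FPKM on LS. Neither passed the test. All 8 platelet genes described were higher on HS (median log2 fold change 0.52, or 0.18 over those whose higher group reached 5 FPKM), and the sum over the 16 matched platelet genes was 97.2 FPKM on HS and 67.0 FPKM on LS. Ppbp, another abundant platelet chemokine gene, was below 1 FPKM on both diets.

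The granulocyte genes S100a8 and S100a9 encode the 2 chains of calprotectin, a calcium-binding protein that fills the cytoplasm of neutrophils. S100a9 (chromosome 2 from 209531411 to 209534219) was at 3.54 FPKM on HS, against 13.8 FPKM on LS, a log2 fold change of -1.96 (SE 0.53; Cuffdiff q = 0.0106). Among genes with a symbol whose higher group reached 5 FPKM, this was the largest fall. S100a8 was at 4.40 FPKM on HS and 12.3 FPKM on LS, or 35.9% of its LS level. The other 8 matched neutrophil genes, such as the collagenase gene Mmp8 and the chemokine receptor gene Cxcr2, were below 1 FPKM on both diets. Their list summed to 9.08 FPKM on HS and 27.7 FPKM on LS, with no member at 0. Ccl9, a chemokine gene known in mice from myeloid cells, was at 0.655 FPKM on HS and 2.19 FPKM on LS, and Il1b, the gene of the cytokine interleukin-1 beta, was at 0.786 FPKM on HS and 1.96 FPKM on LS. Both fell.

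Not every myeloid gene fell. Fcnb, which encodes ficolin-B, a lectin made by myeloid cells, rose, with 7.53 FPKM on HS and 3.91 FPKM on LS. Capg, an actin-capping protein gene that is abundant in macrophages, rose as well, with 19.3 FPKM on HS and 11.5 FPKM on LS. The lysozyme gene Lyz2 was at 52.4 FPKM on HS and 37.6 FPKM on LS, with a Cuffdiff q of 0.0879 in the authors' deposited table. The 18 matched monocyte and macrophage genes summed to 168 FPKM on HS and 138 FPKM on LS, and the complement genes C1qa, C1qb and C1qc were at 0 on both diets. No B cell gene of 14 tested was called by Cuffdiff or had an unadjusted p under 0.05, and the B cell list summed to 114 FPKM on HS and 105 FPKM on LS.

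Umod, which encodes uromodulin, the main secreted protein of the thick ascending limb of the kidney, was at 1.93 FPKM on HS and was listed at 0 on LS. FXYD2, the gamma subunit gene of the renal sodium pump, was at 1.32 FPKM on HS and 0.426 FPKM on LS, and both passed. Of 13 matched genes of the kidney tubule list 2 were tested, and Umod was the 1 called. The 1 described gene of that list was lower on HS (log2 fold change -0.29). The list summed to 7.97 FPKM on HS and 6.00 FPKM on LS, and in SS/MCW to 5.84 FPKM on HS and 6.20 FPKM on LS. For 77 gene models, kidney cells of SS/CRL rats held at least 100 FPKM and at least 100 times the circulating level on each diet. Their levels in blood summed to 31.2 FPKM on HS and 23.2 FPKM on LS. Of these 77, 53 were higher on HS, 15 were lower and 9 were at 0 on both diets. Over all described gene models, which had to be tested and reach 1 FPKM, 54.3% were higher on HS. Only 22 of the 77 were tested, and 2 of them were called, both higher, beside 0.67% called over all gene models tested. In bulk samples a change in the number of cells of a type and a change in the RNA per cell cannot be told apart. The part of platelets, red cells, granulocytes and kidney RNA in the changes of other genes was not tested.

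**Figure D2:**
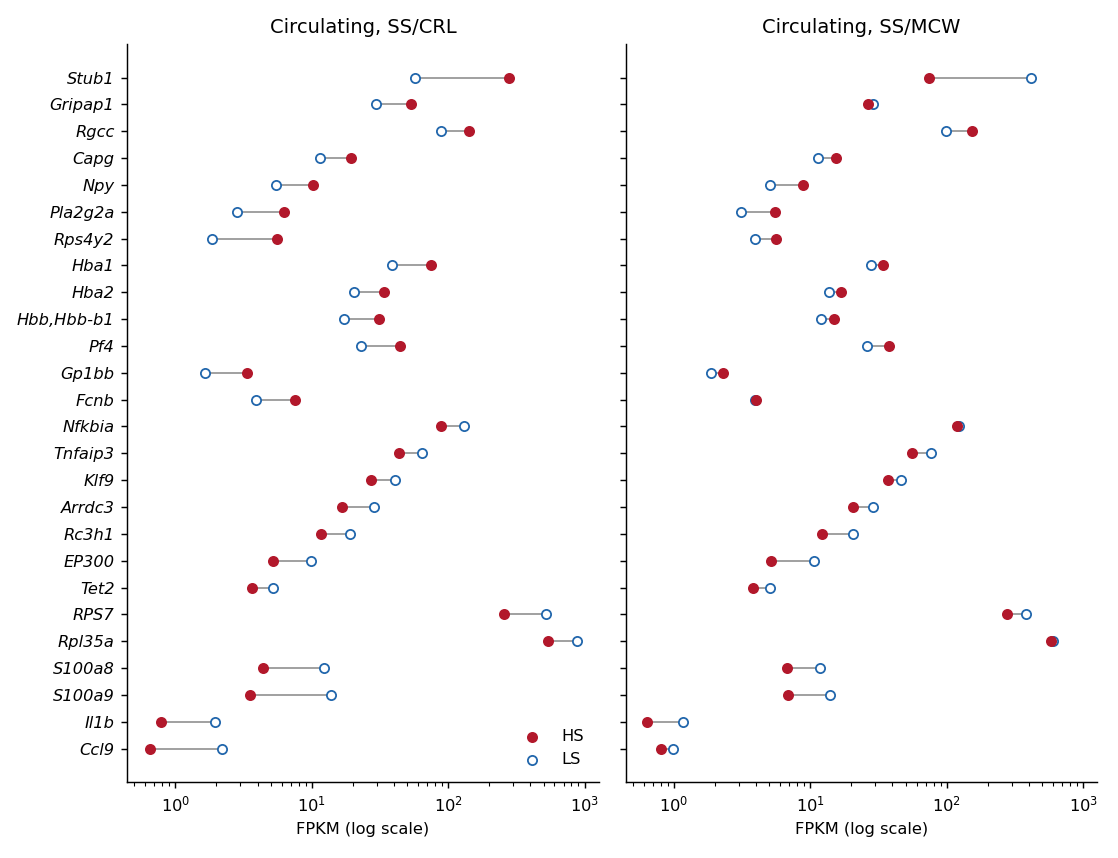
Levels in FPKM (log scale) of called genes on HS (filled) and LS (open) in circulating T cells of SS/CRL rats (left) and SS/MCW rats (right), 1 value per group. The 2 diets were set apart most for Stub1, in opposite directions in the colonies, while S100a8 and S100a9 were lower on HS in both panels.

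Stub1 had the largest rise among genes with a symbol whose higher group reached 5 FPKM. It encodes CHIP, a ubiquitin ligase that binds the chaperones Hsp70 and Hsp90 and marks misfolded proteins for degradation, and in T cells it can target the regulatory factor Foxp3. Stub1 (chromosome 10 from 15003669 to 15012978) was at 280 FPKM on HS, against 57.5 FPKM on LS, a 4.87-fold difference and a log2 fold change of 2.28 (SE 0.32; Cuffdiff q = 0.0106). Foxp3 was at 13.2 FPKM on HS and 12.3 FPKM on LS and was not called. The genes around Stub1 did not share its difference. The model that carries the symbols Jmjd8 and Wdr24 has the same locus limits as Stub1 and was at 38.7 FPKM on HS and 37.2 FPKM on LS. Fam173a on one side was at 35.4 FPKM on HS and 28.2 FPKM on LS, and Rhot2 on the other at 26.2 FPKM on HS and 23.9 FPKM on LS, and none of the 3 models was called. How reads were divided between gene models that overlap is not given in the sources used here, so the Stub1 level is uncertain to that extent.

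In SS/MCW rats Stub1 went the opposite way, with 74.1 FPKM on HS, against 413 FPKM on LS, a log2 fold change of -2.48 (Cuffdiff q = 0.0469). The effect of salt in SS/CRL less that in SS/MCW was 4.76 on the log2 scale, with an adjusted p of 3.12e-16 from a normal test of the difference with Benjamini-Hochberg adjustment. When the deposited p set the standard errors, the adjusted p was 0.000143. Between the colonies the order turned with the diet. On HS the SS/CRL level was 272 FPKM and the SS/MCW level 74.5 FPKM in the table that compared them, while on LS the SS/CRL level was 57.4 FPKM and the SS/MCW level 424 FPKM, and both differences passed (Cuffdiff q = 0.0224 and 0.0144). These comparisons reuse the libraries of the salt comparisons, so they are not independent of the calls above. In kidney T cells of SS/CRL rats Stub1 was at 120 FPKM on HS and 135 FPKM on LS and was not called. The heat shock and chaperone list, which includes Stub1, held 15 of 16 described genes that were higher on HS at a median log2 fold change of 0.24. Over all described gene models 54.3% were higher. Stub1 was its 1 called member of 17 tested, beside 0.67% called over all gene models tested.

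**Figure D3:**
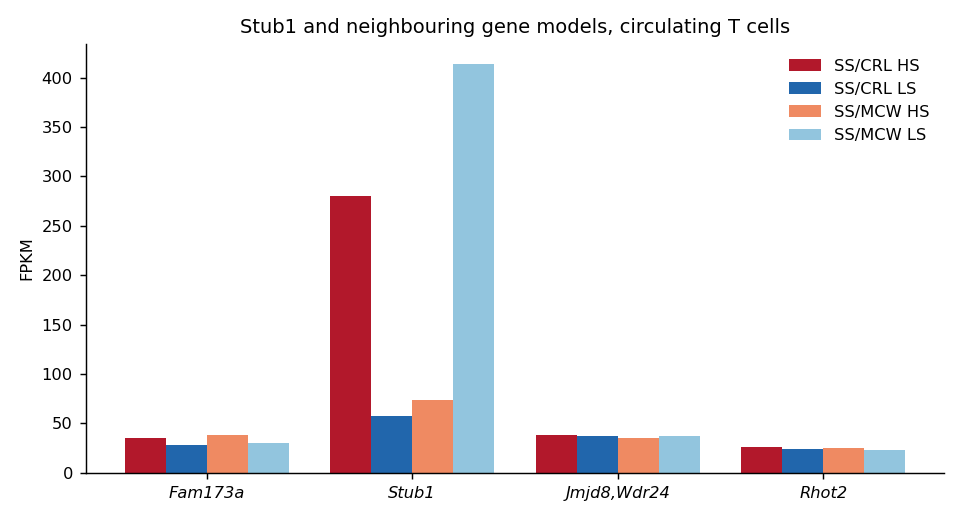
FPKM of Stub1 and of 3 neighbouring gene models in circulating T cells, in the order SS/CRL HS, SS/CRL LS, SS/MCW HS, SS/MCW LS, 1 value per group. Stub1 was at 280 and 57.5 FPKM in SS/CRL and at 74.1 and 413 FPKM in SS/MCW, and the neighbours were nearly level.

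The other rises of genes with a symbol and above 0 in both groups were smaller than that of Stub1. Gripap1, which encodes a protein of recycling endosomes (chromosome X from 16305160 to 16334935), was at 53.0 FPKM on HS, against 29.6 FPKM on LS, a log2 fold change of 0.84 (SE 0.24; Cuffdiff q = 0.0106). In SS/MCW rats Gripap1 was at 26.7 FPKM on HS and 29.0 FPKM on LS, but the difference between the colonies did not pass (normal test, adjusted p of 0.99999). The 3 other groups of circulating cells were thus level with each other for Gripap1, and SS/CRL on HS stood above them. Rgcc, a regulator of the cell cycle, was at 141 FPKM on HS and 89.0 FPKM on LS, and was nearly as far apart in SS/MCW rats, with 154 FPKM on HS and 99.2 FPKM on LS. Pla2g2a, a secreted phospholipase gene of inflammation, was at 6.22 FPKM on HS and 2.84 FPKM on LS. Npy, the gene of neuropeptide Y, was at 10.2 FPKM on HS and 5.47 FPKM on LS.

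Other rises were called for genes with varied roles. Sap30, a subunit of the Sin3 histone deacetylase complex, was at 21.6 FPKM on HS and 13.6 FPKM on LS. Irf2bp1, a corepressor that binds the interferon regulatory factor Irf2, was at 10.0 FPKM on HS and 6.58 FPKM on LS. Stx8, an endosomal syntaxin, was at 47.3 FPKM on HS and 31.9 FPKM on LS, and Tpgs1, a subunit of the enzyme that adds glutamate to tubulin, at 14.6 FPKM on HS and 9.25 FPKM on LS. The death-associated kinase gene Dapk3, the dynein light chain gene Dynll1, the parathymosin gene Ptms and the iron-sulfur assembly gene Nubp2 rose by 0.47 to 0.55 on the log2 scale. Ptms and Dynll1 were abundant, with 227 and 442 FPKM on HS, against 162 and 315 FPKM on LS. Below 5 FPKM, the F-box gene Fbxl15 and the cell cycle cofactor gene Sertad1 rose too, with 2.16 and 4.40 FPKM on HS, against 0.966 and 2.36 FPKM on LS.

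The genes of a pair of inhibitors of NF-kB, the transcription factor that drives inflammatory genes after T cell activation, fell on HS. Nfkbia encodes IkB-alpha, which holds NF-kB in the cytoplasm, and Tnfaip3 encodes A20, an enzyme that shuts off the kinase cascade upstream. Both are themselves NF-kB targets. Nfkbia (chromosome 6 from 85803990 to 85807223) was at 87.9 FPKM on HS, against 131 FPKM on LS, a log2 fold change of -0.58 (SE 0.26; Cuffdiff q = 0.0106). Tnfaip3 was at 43.5 FPKM on HS and 64.6 FPKM on LS, a log2 fold change of -0.57 (SE 0.27) at the same q. In SS/MCW rats Nfkbia was at 118 FPKM on HS and 122 FPKM on LS, and Tnfaip3 at 55.6 FPKM on HS and 77.2 FPKM on LS, with neither called. The difference of the salt effects between the colonies did not pass for Nfkbia (-0.53 on the log2 scale, normal test, adjusted p of 0.99999).

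The promoters of these genes, of Stub1 and of S100a9 are shown because they carry the called rise and falls described above. They are the 250 bases before and 50 after the annotated start from RefSeq on build GRCr8, which is not the build of the authors' files, all on the minus strand. Capitals mark matches to the AP-1 motif TGANTCA and to the NF-kB consensus, searched on both strands.
Nfkbia, chr6:78597023-78597322: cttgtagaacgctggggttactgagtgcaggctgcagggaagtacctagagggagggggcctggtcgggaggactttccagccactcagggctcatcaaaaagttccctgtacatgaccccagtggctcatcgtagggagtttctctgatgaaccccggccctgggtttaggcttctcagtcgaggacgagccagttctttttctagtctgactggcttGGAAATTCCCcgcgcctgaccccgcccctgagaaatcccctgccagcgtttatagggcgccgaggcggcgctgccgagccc
Tnfaip3, chr1:15543930-15544229: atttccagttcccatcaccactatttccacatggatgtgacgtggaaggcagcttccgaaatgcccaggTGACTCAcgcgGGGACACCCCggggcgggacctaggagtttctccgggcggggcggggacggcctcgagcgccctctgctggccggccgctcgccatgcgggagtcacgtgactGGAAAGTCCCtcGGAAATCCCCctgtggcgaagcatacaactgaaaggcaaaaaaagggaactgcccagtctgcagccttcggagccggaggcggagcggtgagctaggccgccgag
Stub1, chr10:15357510-15357809: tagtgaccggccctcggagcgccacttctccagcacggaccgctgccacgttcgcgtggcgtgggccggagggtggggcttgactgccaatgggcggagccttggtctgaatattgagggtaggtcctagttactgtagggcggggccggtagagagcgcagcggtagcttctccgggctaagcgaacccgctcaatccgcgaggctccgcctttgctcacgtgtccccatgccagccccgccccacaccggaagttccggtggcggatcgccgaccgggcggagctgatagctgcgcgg
S100a9, chr2:178490573-178490872: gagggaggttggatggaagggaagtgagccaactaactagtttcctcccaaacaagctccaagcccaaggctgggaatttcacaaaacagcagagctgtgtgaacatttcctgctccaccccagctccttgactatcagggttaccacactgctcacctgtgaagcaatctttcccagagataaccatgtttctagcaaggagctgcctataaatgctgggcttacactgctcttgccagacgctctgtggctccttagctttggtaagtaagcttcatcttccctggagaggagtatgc

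The Nfkbia promoter held 1 NF-kB match, at position -31 from the start, and that of Tnfaip3 held 3, at -170, -67 and -55, with 1 AP-1 match at -181. Of 27457 RefSeq promoters of the same length, 7.60% held an NF-kB match and 7.33% an AP-1 match. The windows of Stub1 and S100a9 held neither. None of the 4 windows held the glucocorticoid response motif TGTTCT, found in 20.1% of promoters. The osmotic response motif GGAAA, found in 62.5% of promoters, had no match for Stub1, 3 for S100a9, 2 for Nfkbia and 4 for Tnfaip3, of which 1 in Nfkbia and 2 in Tnfaip3 overlap the NF-kB matches. The ETS core GGAAG, found in 70.1%, had 1 match for Stub1, 3 for S100a9, 1 for Nfkbia and 2 for Tnfaip3. A match is a stretch of letters and not a measured binding site.

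Not all NF-kB feedback and survival genes went down with Nfkbia and Tnfaip3. Of 17 described, 12 were higher on HS at a median log2 fold change of 0.10, beside 54.3% and 0.03 over all described gene models. These 2 were the ones called of 17 tested, beside 0.67% called over all gene models tested. The cytokine signalling inhibitor gene Cish was at 16.1 FPKM on HS and 9.84 FPKM on LS, and the NF-kB adaptor gene Traf1 at 6.74 FPKM on HS and 4.48 FPKM on LS. Both had a Cuffdiff q of 0.0532 in the authors' deposited table, just short of the threshold. Among immediate early genes, which are induced within minutes of a stimulus, none of 19 tested was called, and 8 of 18 described were higher on HS. Of the 19, 3 higher and 1 lower had an unadjusted Cuffdiff p under 0.05, beside 9.18% of all gene models tested.

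Klf9, a Krüppel-like transcription factor gene that glucocorticoid hormone induces (chromosome 1 from 248193533 to 248219917), was at 27.0 FPKM on HS, against 41.0 FPKM on LS, a log2 fold change of -0.60 (SE 0.27; Cuffdiff q = 0.0106). It was the 1 called member of 12 tested in the glucocorticoid target list, beside 0.67% called over all gene models tested. Of the 12 genes, all described, 4 were higher on HS at a median log2 fold change of -0.17, beside 54.3% higher over all described gene models. Tsc22d3, which encodes the glucocorticoid-induced leucine zipper, was at 373 FPKM on HS and 392 FPKM on LS, and the receptor cochaperone gene Fkbp5 at 27.3 FPKM on HS and 23.5 FPKM on LS. The glucocorticoid receptor gene Nr3c1 was at 18.2 FPKM on HS and 21.9 FPKM on LS. None of these 3 was called. In SS/MCW the list's median log2 fold change was 0.03.

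Further genes fell by similar amounts. EP300, which encodes the histone acetyltransferase p300, was at 5.17 FPKM on HS and 9.93 FPKM on LS, or 52.1% of its LS level. Rc3h1 encodes roquin-1, which represses the messenger of the costimulatory receptor Icos, and was at 11.6 FPKM on HS and 19.0 FPKM on LS. Icos itself was at 36.1 FPKM on HS and 38.2 FPKM on LS and was not called. Lcor, a nuclear receptor corepressor gene, was at 7.12 FPKM on HS and 11.5 FPKM on LS. Tet2, which oxidises methylated cytosine, was at 3.66 FPKM on HS and 5.21 FPKM on LS, and Kdm7a, a histone demethylase gene, at 9.91 FPKM on HS and 14.6 FPKM on LS. The transcription factor genes Zfp281 and Rfx3 fell as well, to 67.9% and 72.7% of their LS levels.

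Falls were also called for the following genes. Arrdc3, an arrestin family gene that controls receptor trafficking, was at 16.6 FPKM on HS and 28.7 FPKM on LS. Crebrf, a regulator of the stress response, was at 22.5 FPKM on HS and 34.7 FPKM on LS, and Klhl11, an adaptor of a cullin ubiquitin ligase, at 3.07 FPKM on HS and 5.83 FPKM on LS. Pigm and Alg10, mannosyl- and glucosyltransferases of the endoplasmic reticulum, fell to 62.6% and 69.4% of LS, and Pank3, an enzyme of coenzyme A synthesis, to 63.8%. RGD1561333 and Cox7a2l2 fell to 44.2% and 50.6% of LS. Rab11fip2, Zfp770, Lysmd3, Rbm41 and Ccdc15 also fell, to between 56.1% and 67.1% of LS. In SS/MCW rats all the genes of this and the preceding paragraph that were called in SS/CRL were also lower on HS, with none called there.

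Gene models named for proteins of the ribosome, which translates messenger RNA, were among the falls. The 3 models named RPS29, on chromosomes 7, 3 and 13, were at 26.3, 23.6 and 17.6 FPKM on HS, against 67.7, 59.7 and 43.5 FPKM on LS. RPS7 on chromosome 5 was at 255 FPKM on HS and 519 FPKM on LS, and Rpl35a on the same chromosome at 538 FPKM on HS and 884 FPKM on LS. Rps4x was at 360 FPKM on HS and 528 FPKM on LS. In contrast, Rps4y2, named for ribosomal protein S4, rose, with 5.60 FPKM on HS and 1.86 FPKM on LS. Ribosomal protein genes have many near-identical copies in the genome, so the division of reads among them is uncertain. The 33 tested models of the ribosomal protein list did not follow these falls, since 30 were higher on HS at a median log2 fold change of 0.17. Over all described gene models 54.3% were higher. Of the 33, 1, Rps4x, was called, beside 0.67% called over all gene models tested.

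The 3 RPS29 models were highest in SS/CRL on LS. RPS29 on chromosome 7 was at 29.5 FPKM on HS and 40.2 FPKM on LS in SS/MCW rats, so that the SS/CRL level on HS lay near the SS/MCW level on HS. On LS, the 3 RPS29 models were higher in SS/CRL than in SS/MCW by 0.59 to 0.84 on the log2 scale, and all passed (Cuffdiff q between 0.0144 and 0.0323). On HS none of the 3 exceeded SS/MCW, with log2 fold changes of -0.21 to -0.24. These comparisons of the colonies reuse the SS/CRL libraries in which the models were called, so they are not independent of that call.

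Some called gene models without a symbol reached high levels. A model of 0.226 kb on chromosome 17, from 50684574 to 50684799, was at 378 FPKM on HS, against 1052 FPKM on LS. It was also higher in SS/CRL than in SS/MCW on LS (log2 fold change 0.67, Cuffdiff q = 0.0144), in a comparison that reuses the SS/CRL libraries on LS. Another on chromosome 17, from 80517906 to 80518346, was at 394 FPKM on HS and 799 FPKM on LS. In the opposite direction, a model of 4.46 kb on chromosome 4, from 7826597 to 7831056, was at 197 FPKM on HS and 66.9 FPKM on LS, a log2 fold change of 1.56 (SE 0.18; Cuffdiff q = 0.0106). In SS/MCW rats the chromosome 4 model was at 105 FPKM on HS and 106 FPKM on LS. The difference between the colonies passed for it with an adjusted p of 0.000259 in the normal test, and gave 0.490 with standard errors from the deposited p. A model on chromosome 1 from 13497172 to 13561851 rose in SS/CRL, with 246 FPKM on HS and 134 FPKM on LS, and was at 371 FPKM on HS and 205 FPKM on LS in SS/MCW.

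Genes through which T cells are known to sense salt did not pass the test. Sgk1 was at 7.99 FPKM on HS, against 9.89 FPKM on LS (Cuffdiff q = 0.490 in the authors' deposited table), and Nfat5 at 12.4 FPKM on HS, against 16.3 FPKM on LS (q = 0.189). The aldose reductase gene Akr1b1, a target of Nfat5 that makes the osmolyte sorbitol, was at 86.2 FPKM on HS and 71.9 FPKM on LS. Of 12 described genes of the sodium and osmotic response list 3 were higher on HS at a median log2 fold change of -0.08, beside 0.03 over all 14057 gene models described the same way. Sgk1 and Nfat5 were also lower on HS in SS/MCW, with 10.5 and 11.7 FPKM on HS, against 12.5 and 16.4 FPKM on LS, and neither was called there. No member of the sodium and proton transport list (11 tested), the renin, angiotensin and aldosterone list (4 tested) or the NADPH oxidase list (9 tested) was called by Cuffdiff. Of 14 genes of the sodium and osmotic response list tested, 1 higher and 2 lower had an unadjusted Cuffdiff p under 0.05. These p-values were 0.0426 for Akr1b1, 0.0039 for Nfat5 and 0.038 for Sgk1. An unadjusted p under 0.05 was given to 2 members of the sodium and proton transport list, 1 of the renin, angiotensin and aldosterone list and 0 of the NADPH oxidase list. Over all gene models tested the share was 9.18%.

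No gene of the T cell subset lists was called. Of 15 genes of tissue-resident and effector memory cells 12 were higher on HS at a median log2 fold change of 0.32, beside 0.03 over all described gene models. An unadjusted Cuffdiff p under 0.05 was given to 7 of the 15, beside 9.18% of all gene models tested, but none passed the q threshold. Cxcr3, the chemokine receptor of type 1 effector cells, was at 25.5 FPKM on HS and 18.5 FPKM on LS (q = 0.102). Lgals1, which encodes galectin-1, was at 507 FPKM on HS and 384 FPKM on LS (q = 0.141). Of 14 genes of naive and recirculating cells 4 were higher on HS, with a median of -0.10. The naive cell homing receptor gene Ccr7 was at 349 FPKM on HS and 294 FPKM on LS and was not called. Among 15 described cytotoxic genes 11 were higher on HS, with a median of 0.08, and the perforin gene Prf1 was at 45.6 FPKM on HS and 37.3 FPKM on LS. Of 16 cytotoxic genes tested none was called by Cuffdiff, and 3 had an unadjusted p under 0.05. None of the helper and effector lineage factors (17 tested), costimulatory and checkpoint receptors (14 tested) or interferon-stimulated genes (28 tested) was called. These lists held 3, 2 and 1 genes with an unadjusted p under 0.05, beside 9.18% of all gene models tested.

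Energy genes lay slightly higher on HS, with no call. All 35 oxidative phosphorylation genes were higher on HS, with log2 fold changes of 0.01 to 0.40 and a median of 0.19, and their levels summed to 5629 FPKM on HS and 4825 FPKM on LS. Over all described gene models 54.3% were higher on HS. The respiratory chain gene Cox4i1 was at 792 FPKM on HS and 599 FPKM on LS (Cuffdiff q = 0.423). An unadjusted Cuffdiff p under 0.05 was given to 7 of the 35 oxidative phosphorylation genes and 7 of 17 glycolysis genes tested. It was given to 5 of 16 antioxidant genes and 1 of 28 cell cycle genes tested, beside 9.18% of all gene models tested. Of 17 glycolysis genes 16 were higher, with a median of 0.25, and the aldolase gene Aldoa was at 154 FPKM on HS and 122 FPKM on LS (Cuffdiff q = 0.281). Antioxidant genes (13 of 15 higher, median 0.20) and cell cycle genes (21 of 23 higher, median 0.16) were shifted in the same direction with no call. In SS/MCW rats the median was 0.29 for oxidative phosphorylation, 0.17 for glycolysis, 0.27 for antioxidant and 0.13 for cell cycle genes.

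**Figure D4:**
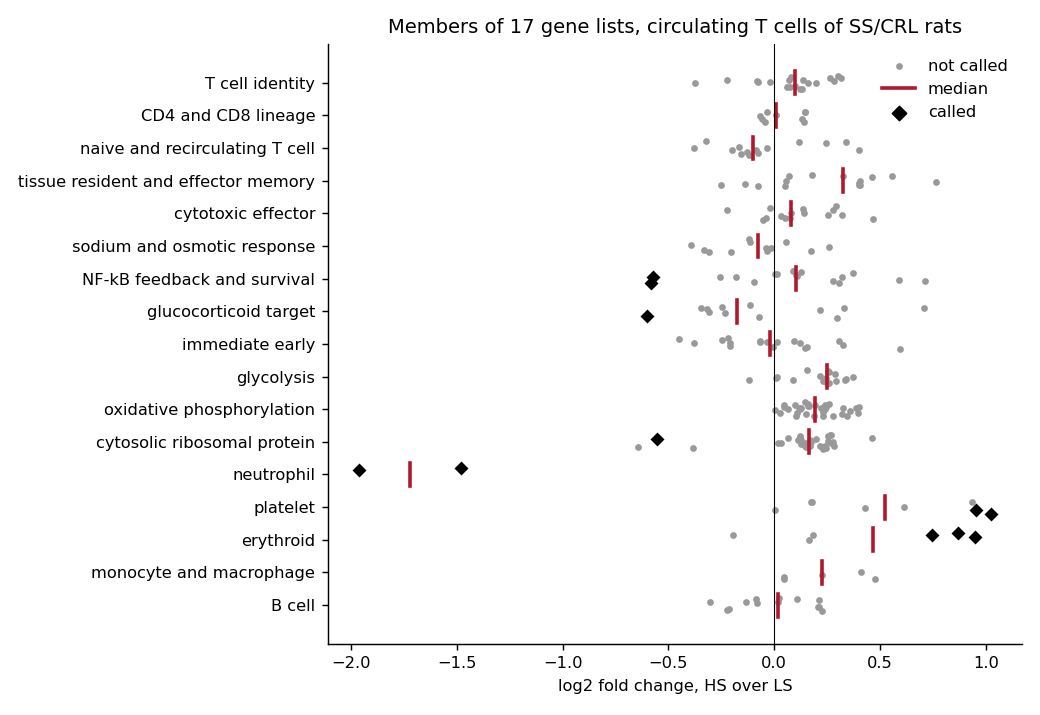
Log2 fold change of HS over LS for described members of 17 gene lists in circulating T cells of SS/CRL rats, with each list's median as a red line and called genes as black diamonds. The called members lie mainly in the neutrophil, platelet and erythroid lists, and all 35 oxidative phosphorylation genes lie right of 0 without a call.

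The size of the salt effect varied with the length of the gene's locus. The 12674 gene models tested with at least 1 FPKM on both diets were ordered by locus span and divided into 10 equal groups. The median log2 fold change was 0.12 in the group with a median span of 6.43 kb and -0.06 in that of 105 kb. The relation was not a steady fall with length, since the shortest loci, with a median span of 0.383 kb, gave -0.03 and the longest, of 261 kb, gave -0.02. SS/MCW circulating cells gave 0.14 and -0.05 in the groups of 6.43 kb and 105 kb, while kidney cells of SS/CRL rats gave 0.0035 and 0.01. Called genes with a symbol and at least 1 FPKM on both diets were 22 that rose and 31 that fell. Their median span was 5.78 kb where they rose and 10.6 kb where they fell. It was 30.3 kb over all tested genes with a symbol and at least 1 FPKM on both diets. The oxidative phosphorylation genes had a median span of 12.5 kb and the sodium and osmotic response genes one of 84.6 kb. The part of locus span in the shifts of the lists was not tested.

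**Figure D5:**
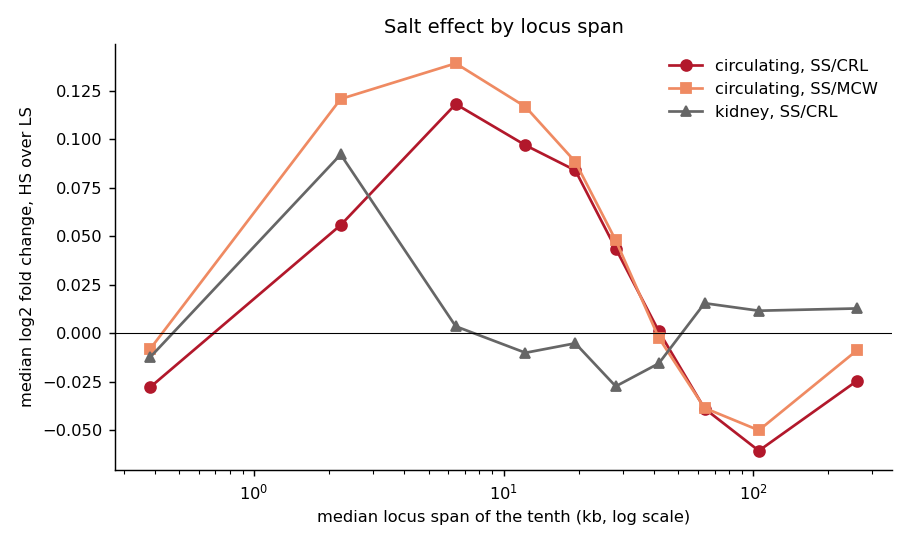
Median log2 fold change of HS over LS in each of 10 equal groups of gene models by locus span, against the median span of the group in kb (log scale), for circulating cells of SS/CRL and SS/MCW rats and kidney cells of SS/CRL rats. The gene models were those tested with at least 1 FPKM on both diets in circulating SS/CRL cells. Both circulating curves fall from near 0.12 to 0.14 at 6.43 kb to below 0 at 105 kb, and the kidney curve stays near 0 over that range.

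The same diets in SS/MCW rats gave fewer calls and mostly the same directions. In circulating cells of SS/MCW, 18 of 16885 gene models were called, or 0.107%. Of the 98 gene models called in SS/CRL with a value above 0 in all 4 groups, 90 had the same sign in SS/MCW. These were 24 of 31 that rose and 66 of 67 that fell, and the effect was the larger in SS/CRL for 76 of the 90. The gene models were chosen by their call in SS/CRL, so this count is a description only. Called in both colonies were 6 gene models, which is 5.22% of the SS/CRL calls and 33.3% of the SS/MCW calls. Stub1 was one of them, with opposite directions, and the other 5 had no symbol and fell in both. The colonies share no library. Across 12074 gene models tested in both colonies with at least 1 FPKM in all 4 groups, the salt effects had a Pearson correlation of 0.53. The Spearman correlation was 0.63, and 76.7% had the same sign. Gene models are not independent replicates, and they share the span trend described above. As background, the colonies come from different breeding sites and eat different basal chows, and the parts of breeding site and chow cannot be told apart here.

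The test of the difference between the colonies passed 6 of 14309 gene models, or 0.0419%. Besides Stub1 and the model on chromosome 4, these were 4 models without a symbol whose deposited p exceeded 0.05 in each colony. With standard errors from the deposited p, Stub1 alone passed. The larger salt effects in SS/CRL for S100a9, Hba1, Pf4 and Fcnb were not shown to differ from those in SS/MCW (adjusted p of 0.99999 for each in the normal test). In that test only 26 gene models, or 0.182%, had an unadjusted p under 0.05, so it could miss true differences. An adjusted p of 0.99999, here or for Gripap1 and Nfkbia above, does not show that the effects were equal. In SS/MCW S100a9 was at 6.86 FPKM on HS and 13.9 FPKM on LS, and Hba1 at 33.8 FPKM on HS and 27.7 FPKM on LS. The SS/CRL cells on HS thus held the lowest S100a9 level and the highest Hba1 level of the 4 groups.

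In kidney T cells of the same SS/CRL groups the effect of salt was wider and did not follow that in blood. There 1130 of 20501 gene models were called, or 5.51%. The effects in blood and kidney, from separate libraries, were set side by side for 10095 gene models tested in both with at least 1 FPKM in all 4 groups. They had a Pearson correlation of -0.0018, and 47.7% had the same sign. The labels give the blood and kidney pools of SS/CRL the same numbers, and whether a number marks the same rats is not given in the sources used here. The test below treats the tissues as independent. The difference of the effects in blood less those in kidney passed for 4 of 11762 gene models, or 0.034%. These were Hba1, Hba2, the Hbb model and a mitochondrial model without a symbol. Hba1 rose on HS in blood but fell in kidney to 355 FPKM on HS, against 1716 FPKM on LS, so that the log2 fold changes differed by 3.23 (adjusted p of 0.00023 in the normal test). For Hba2 they differed by 2.92 and for the Hbb model by 2.79. With standard errors from the deposited p, 166 gene models passed, 150 of them with the higher log2 fold change in blood, and the 3 hemoglobin models were among them. Sgk1 fell in kidney, with 72.0 FPKM on HS and 154 FPKM on LS (Cuffdiff q = 0.00171), and did not pass in blood. Its difference between the tissues did not pass either, in a test where 108 gene models, or 0.918%, had an unadjusted p under 0.05.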

How the data were processed

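The study has 40 libraries of T cells from blood or kidney, and the labels give 3 rats to each. The submitters' processing notes name cutadapt, Trim Galore 0.2.5, TopHat, TopHat2 2.1.1, Cufflinks 2.2.1, Cuffdiff and build rn5. From 15 deposited files, those of 7 comparisons were used. Per the file headers, each holds the authors' FPKM, 1 value per group, the Cuffdiff test statistic (a score), and its p-value and q-value. The deposited fold change column, altered by a spreadsheet, was replaced by log2 ratios of the FPKM values. Library depth is unknown.

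Called gene models had status OK and a q below 0.05. Differences between effects used a normal z with standard errors equal to log2 fold change over test statistic. They were Benjamini-Hochberg adjusted over gene models with at least 1 FPKM in 1 of the 4 groups. Simulated effects were drawn with these same standard errors, so the simulation could not show whether the standard errors suit these data. Lists (37, with 662 members, 633 matched) were described over tested members above 0 in both groups whose higher group reached 1 FPKM. Named genes were the 15 largest rises and 15 largest falls with 1 symbol whose higher group reached 5 FPKM, up to 4 called members of each list, 8 fixed genes, the most expressed members of lists without a call and those passing a difference test. A few items under this rule are not reported here. Other named genes, the promoters of Nfkbia and Tnfaip3 and the NF-kB consensus were chosen after their values were seen. Members and lists were chosen with earlier results of these data known. Of the 30 largest changes 19 had a RefSeq promoter. Alternatives were other q thresholds, minimum levels, normal p-values, recentring, a pseudocount of 1, levels from other runs and other standard errors. Since no source says that the pools were separate cohorts, p-values measure only the spread between pools. The software was numpy 2.4.6, scipy 1.17.1, pandas 2.3.3 and matplotlib 3.10.9 under Python 3.11.15.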

Additional observations from a re-analysis of the deposited data

Results flagged for a closer look

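The normal test of the difference between the colonies passed for 6 gene models, given as the log2 fold change in SS/CRL less that in SS/MCW. Stub1 differed by 4.76 and a model without a symbol on chromosome 4 from 7826597 to 7831056 by 1.58. With standard errors from the deposited p, Stub1 alone passed, and the chromosome 4 model had an adjusted p of 0.490 in the normal test. The other 4 models differed by -2.49 on chromosome 16 from 49928367, 2.31 on chromosome 11 from 417135, -2.25 on chromosome 8 from 36505239 and -1.51 on chromosome 3 from 101156305, and each had a deposited p over 0.05 in both colonies. Between the tissues of SS/CRL rats, the log2 fold change in blood less that in kidney was 3.23 for Hba1, 2.92 for Hba2, 2.79 for the model Hbb,Hbb-b1 and -0.998 for a mitochondrial model from 15347 to 15415. The mitochondrial model had a deposited p over 0.05 in both tissues, 0.470 in blood and 0.860 in kidney. The 3 hemoglobin models passed with both kinds of standard error.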

How the results depend on the processing

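Of the 115 calls (37 higher, 78 lower), none passed at a q under 0.01. Without gene models at 0 in either group 98 passed, with the deposited p adjusted again 121 passed at a minimum of 1 FPKM and 87 at 5 FPKM, and 107 and 74 of these were among the 115. A normal p of the test statistic gave 9 calls (4 higher, 5 lower), and recentring on the median of gene models with at least 5 FPKM in both groups (0.05 on the log2 scale) gave 10 (4 higher, 6 lower). The cause was not tested. The difference between the colonies passed for 6 gene models at either minimum level and for 1 with standard errors from the deposited p, and that between the tissues for 4 and for 166. Under a pseudocount of 1 or with levels from other runs, 2 of 138 values of called genes moved by more than their standard error, which were Il1b (-0.73) and Ccl9 (-0.95) with the pseudocount, and none changed sign. Of 108 list medians 7 moved by over 0.1: those of platelet (0.42) and neutrophil genes (-1.03) and natural killer genes (0.07) with no filter, and those of platelet (0.18), natural killer (0.20), B cell (0.16) and cytokine and chemokine genes (0.32) at 5 FPKM. No paired analysis was possible because each group has 1 deposited value, and leaving out a library was not run for the same reason. Depth is unknown, so it cannot be said how far low counts limit genes such as Il1b or Umod.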
